A study of Glycine max with 46 samples.

Results

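The 6 genes described here encode the phytochromes A and B of soybean (Glycine max). They were taken as a list of IDs: PHYA1 (Glyma10g28170), PHYA2 (Glyma20g22160, the maturity gene E4), PHYA3 (Glyma19g41210, the maturity gene E3), PHYA4 (Glyma03g38620), PHYB1 (Glyma09g03990) and PHYB2 (Glyma15g14980). All 6 were found among the 54175 genes of the deposited table, and all 6 passed the filter on low values. By the numbering of their IDs they lie on chromosomes 10, 20, 19, 3, 9 and 15. A RefSeq gene table of another build holds a gene named PHYA1, PHYA2 or PHYA3, as symbol or synonym, on chromosomes 10, 20 and 19, so 3 of the 6 names could be placed on the chromosome that the ID gives.

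Phytochromes are photoreceptors that switch between a red-absorbing and a far-red-absorbing form through a bound bilin pigment, and the far-red-absorbing form moves to the nucleus and acts on transcription. In Arabidopsis, phytochrome A builds up in imbibed seeds and dark-grown seedlings, is degraded in light and senses very weak or far-red light, whereas phytochrome B is stable in light and drives the red and far-red reversible promotion of germination. In soybean, E3 and E4 are known for delaying flowering and maturity under long days.

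RNA was sequenced from seeds of the cultivar Williams 82 at 7 stages with 3 biological replicates each. These were early, mid and late desiccation, the dry seed, and 3, 16 and 27 h after imbibition, the uptake of water that starts germination. The labels give the tissue as whole seed and the protocol mentions embryos, and nothing in the labels says that replicates came from separate plants, so p-values measure the spread between these samples, which may be partly technical. All groups share the genotype and a growth regime for the plants of 22 °C with days of 16 h and nights of 8 h. Whether seeds imbibed in light or in darkness is not given in the sources used here. Markers of the tissue were not checked, because no source pairs the IDs of the table with gene names.

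Values are normalized counts, that is read counts divided by 1 size factor per library. Run 1 of late desiccation replicate 3 had 2.53 M reads (M, mega), while the summed runs of each other replicate had 43.82 to 86.52 M. The labels list a run 2 of this replicate, but no column name matches it, and 1 column whose name matches no label was not used. The name of that column gives replicate 3 and run 2, as the missing run has, but a stage code that no label has. Whether that column holds this run was not settled. Values of late desiccation replicate 3, its read counts included, are therefore those of run 1 alone, and what follows from its low depth depends on this choice. A set of 9974 genes that averaged below 2 at 16 h and at 27 h gives a low-level signal of each replicate. The mean of this set was 10.5 in replicate 3 of early desiccation but 0.226 and 0.21 in its replicates 1 and 2. It was 10.04, 7.73 and 1.02 in the late desiccation replicates. Both replicates numbered 3 thus differ from the others of their stage, and results of PHYA4 and PHYB2 that rest on them are also given without them.

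Of the 4 PHYA genes, 3 rose between 3 h and 16 h after imbibition, and PHYB1 rose from dry seed to 27 h. PHYB2 passed the test across all stages but no single step, and PHYA4 passed neither. In whole seeds, a higher level in each cell and a larger share of cells with the transcript cannot be told apart. Of the 6 genes, 5 changed across the 7 stages (limma F test on log2 values, adjusted p under 0.05 and a largest difference of at least 2-fold), beside 37.5% of all 46537 genes tested. The range between the lowest and the highest stage was 4.66 on the log2 scale for PHYA2 (limma adjusted p = 2.61e-14), 4.31 for PHYA1 (limma adjusted p = 4.46e-12), 2.52 for PHYA3 (limma adjusted p = 1.13e-08), 2.16 for PHYB1 (limma adjusted p = 3.34e-09) and 1.998 for PHYB2 (limma adjusted p = 0.000142). For PHYA4 it was 0.84 (limma adjusted p = 0.672), and 1.35 without both replicates numbered 3 (limma adjusted p = 0.0332), which passed. The late desiccation replicates left in that fit had low-level signals of 10.04 and 7.73, whose part was not tested. With all replicates the median range of all genes tested was 2.2. A smaller range than that of PHYA2 was found in 95.4% of genes, and than that of PHYA1 in 94%. For PHYA3, PHYB1, PHYB2 and PHYA4 these shares were 62.1%, 48.4%, 42.4% and 7.74%, so the PHYB ranges were not larger than that of a typical gene. The plot of levels by stage shows each replicate.

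**Figure D1:**
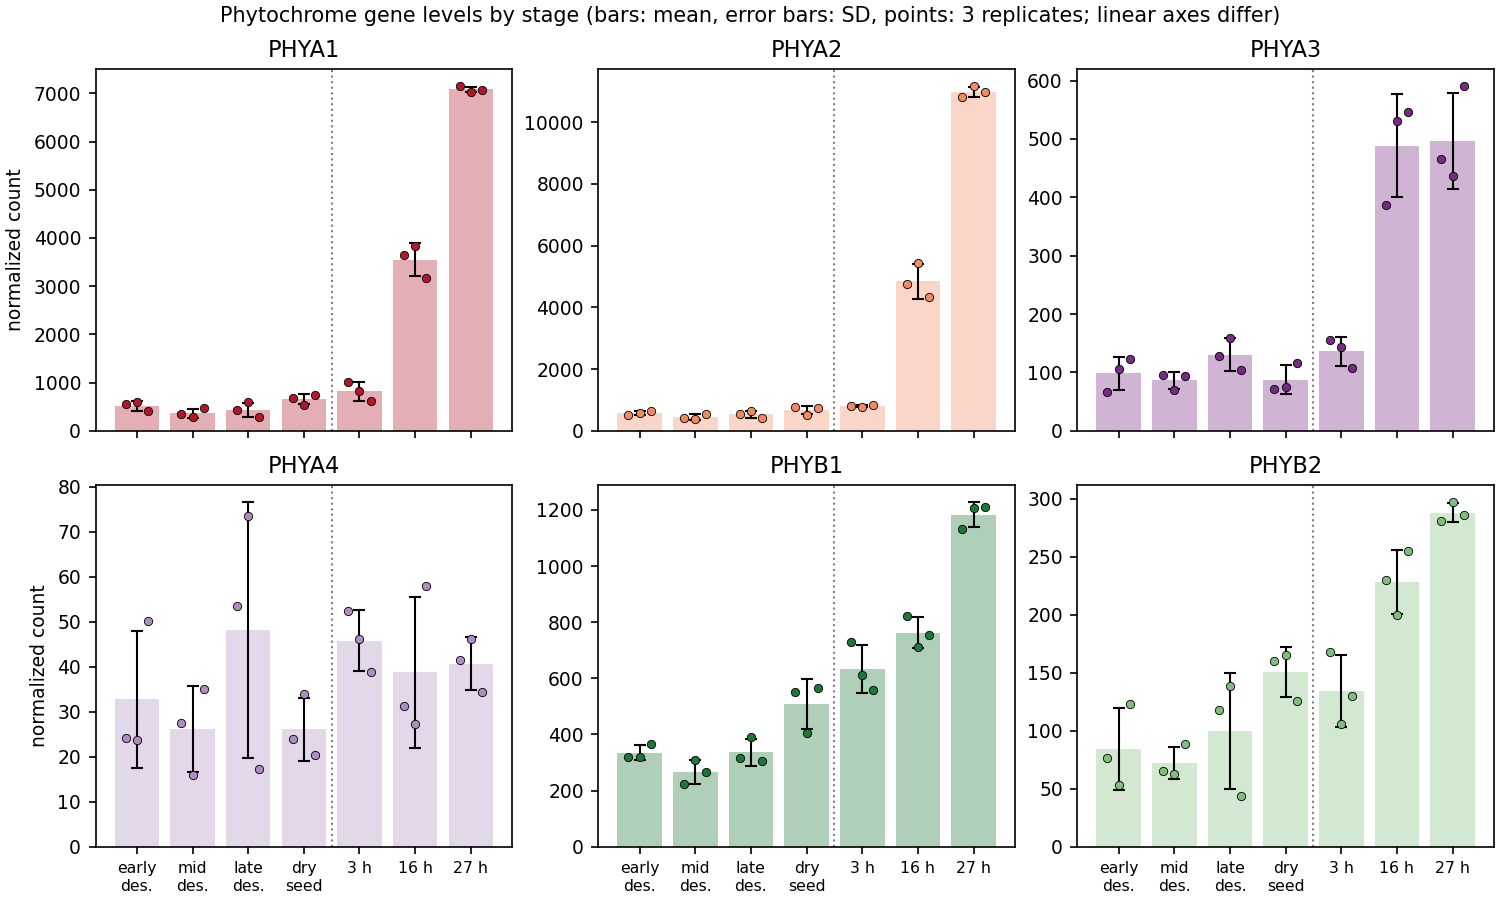
Normalized counts of the 6 phytochrome genes (vertical axes, linear and different in each panel) at the 7 stages (horizontal axis); bars are means, error bars SD and points the 3 replicates, and the dotted line marks imbibition. PHYA1 and PHYA2 climb at 16 h and again at 27 h, PHYA3 reaches 488 at 16 h and stands at 497 at 27 h, and for PHYA4 each stage overlaps the next in the order of means.

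PHYA1 encodes a phytochrome A apoprotein. Its replicates stood at 551, 594 and 406 normalized counts in early desiccation, at 344, 281 and 469 in mid desiccation and at 429, 588 and 295 in late desiccation. They stood at 682, 541 and 751 in dry seed and at 1003, 822 and 623 at 3 h. At these 5 stages the replicate ranges of neighbours in the order of means overlapped, from 3 h as the highest through dry seed, early and late desiccation to mid desiccation as the lowest. At 16 h the replicates reached 3649, 3839 and 3169, and at 27 h 7144, 7040 and 7074. Both stages lay clear of each other and of all earlier ones. The mean of 7086 ± 53.4 (SD, n = 3) at 27 h was 10.8 times the dry seed mean of 658 ± 107.

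PHYA2, the E4 gene, encodes a close copy of the phytochrome A of PHYA1, so that reads of the pair could be split between them in a way the files do not show. It too was highest at 27 h. In dry seed its replicates had 763, 509 and 745 normalized counts, and after 3 h they had 798, 771 and 830. The 16 h replicates reached 4760, 5447 and 4325, and the 27 h replicates 10819, 11162 and 10987. During desiccation they stayed between 375 and 638. The 3 h replicates lay just above the highest dry seed replicate, and 3 h, 16 h and 27 h were separated from each other. The 27 h mean of 10989 ± 171 was 16.3 times the dry seed mean of 672 ± 142 (SD, n = 3).

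PHYA3, the E3 gene, encodes a further phytochrome A, and its levels fell into a lower range up to 3 h and a higher range at 16 h and 27 h. Its replicates lay at 66.8, 106 and 122 in early desiccation, at 95.5, 69.0 and 93.9 in mid desiccation, at 128, 159 and 104 in late desiccation, at 70.8, 74.7 and 116 in dry seed and at 156, 143 and 108 at 3 h. The replicate ranges of neighbouring means overlapped among these 5 stages. At 16 h the replicates stood at 387, 531 and 547 and at 27 h at 465, 436 and 590, so that both stages overlapped each other and lay above every replicate of the earlier stages.

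PHYA4, the fourth phytochrome A gene, had few reads, from 2 in late desiccation replicate 3 to 264 in 16 h replicate 3. Its replicates were at 24.2, 23.8 and 50.3 normalized counts in early desiccation, at 27.6, 16.1 and 35.01 in mid desiccation, at 53.4, 73.5 and 17.4 in late desiccation and at 23.9, 34.0 and 20.4 in dry seed. After imbibition it had 52.4, 46.3 and 38.9 at 3 h, then 31.2, 27.2 and 58.1 at 16 h, then 41.6, 46.2 and 34.4 at 27 h. Every neighbour in the order of stage means overlapped. The high replicates of the desiccation stages were also those with a high low-level signal: 10.5 beside the PHYA4 value of 50.3 in early desiccation, and 10.04 and 7.73 beside 53.4 and 73.5 in late desiccation. After imbibition the highest PHYA4 replicates of 3 h (52.4) and 16 h (58.1) had low-level signals of 1.51 and 0.421. That of 27 h (46.2) had 1.55, the highest signal of its stage. The part of this signal in the PHYA4 values was not tested.

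PHYB1 encodes a phytochrome B. Its replicates stood at 319, 320 and 367 in early desiccation, at 223, 310 and 266 in mid desiccation, at 316, 392 and 304 in late desiccation and at 553, 407 and 567 in dry seed. The dry seed replicates were all above the desiccation replicates. After imbibition the 3 h replicates had 729, 613 and 558, the 16 h replicates 821, 712 and 754 and the 27 h replicates 1132, 1206 and 1209. Dry seed overlapped with 3 h and 3 h with 16 h, while 27 h was clear of all other stages.

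PHYB2, the other phytochrome B gene, had replicates at 76.4, 53.1 and 123 in early desiccation, at 65.5, 62.8 and 88.2 in mid desiccation and at 118, 138 and 43.4 in late desiccation, the last from 5 reads. Its higher value of early desiccation and its lower value of late desiccation came from the replicates whose low-level signal was 10.5 and 1.02, and the part of that signal was not tested. Dry seed gave 160, 165 and 126, and 3 h of imbibition 168, 106 and 130. Values of 230, 199 and 255 followed at 16 h and of 281, 297 and 286 at 27 h. The dry seed replicates lay above the highest replicate of early and of mid desiccation, but overlapped with late desiccation and 3 h. The 16 h replicates were above those of all earlier stages, and the 27 h replicates above those of 16 h.

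By the median, runs of a replicate differed less than replicates of a stage for each of the 6 genes. The median ratio of the highest to the lowest run was 1.05 for PHYA1, 1.07 for PHYA2, 1.09 for PHYA3, 1.18 for PHYA4, 1.08 for PHYB1 and 1.17 for PHYB2, over the 20 replicates with several runs. The corresponding median ratio between replicates of a stage was 1.47, 1.27, 1.44, 2.11, 1.29 and 1.40, over the 7 stages. The largest ratios between runs, 3.95 for PHYA4 and 4.10 for PHYB2, each involved a run with 2 reads of the gene.

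The first comparison asks whether the genes changed from early to mid desiccation. None of the 6 was called by limma (adjusted p under 0.05 and at least 2-fold), beside 0.0494% of all genes, and edgeR and DESeq2 called 0 as well. All 6 estimates were below 0, from -0.15 for PHYB2 to -0.52 for PHYA1, while the median of all genes was 0.40. TMM scaling moved all genes by a median of 0.24. With it the estimates of PHYA3 and PHYB2 were above 0 (0.09 and 0.10), so the shared sign depends on the scaling. Without both replicates numbered 3, PHYA3, PHYA4 and PHYB2 were above 0 (0.02, 0.06 and 0.16). At an unadjusted p under 0.05 there were 3 genes, PHYA1, PHYA2 and PHYB1 (limma adjusted p = 0.624 for each). The share of all genes at this looser cut is not given, here or below. Such counts therefore cannot be set against the shares of called genes.

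From mid to late desiccation limma, edgeR and DESeq2 again called 0 of the 6 genes, beside 0.627% of all genes by limma. At the looser cut of an unadjusted p under 0.05, without a share of all genes, there were 2 genes. These were PHYA3, with a log2 change of 0.59 ± 0.26 (SE; limma adjusted p = 0.418), and PHYB1, with 0.34 ± 0.16 (limma adjusted p = 0.502). The estimates of all 6 genes were above 0 with the deposited scaling, where the median of all genes was -0.11. TMM scaling moved all genes by a median of -0.28, and with it those of PHYA1 and PHYA2 were slightly below 0 (-0.05 and -0.01). PHYB2 had an estimate of 0.32 and PHYA4 of 0.70, which were 0.83 and 1.29 without late desiccation replicate 3 (limma adjusted p = 0.141 and 0.192).

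From late desiccation to dry seed the PHYB genes and PHYA1 had the highest estimates. The median of all genes in this step was -0.37. PHYB1 went from 337 ± 48.0 to 509 ± 88.9 normalized counts, a log2 change of 0.59 ± 0.16 (SE; limma adjusted p = 0.0271), which is under the 2-fold threshold. PHYA1 had a log2 change of 0.63 ± 0.23 (limma adjusted p = 0.103) and PHYB2 of 0.74 ± 0.34 (limma adjusted p = 0.212). PHYA3 and PHYA4 had estimates of -0.59 ± 0.26 and -0.67 ± 0.52 (limma adjusted p = 0.182 and 0.521). By limma 0 of the 6 genes were called, beside 4.04% of all genes. At the looser cut of an unadjusted p under 0.05, without a share of all genes, there were 4. DESeq2 called 0, and edgeR called PHYA1 (log2 change 1.01, edgeR adjusted p = 0.019). TMM scaling moved the median of all genes by 0.34 here, and with it PHYB2 was called (log2 change 1.08, limma adjusted p = 0.0341). Late desiccation replicate 3 held 5 reads of PHYB2 and 2 of PHYA4. Without it the log2 change was 0.22 for PHYB2 (limma adjusted p = 0.525) and -1.27 for PHYA4 (limma adjusted p = 0.0882). Leaving out early desiccation replicate 3 as well, PHYA4 was called as lower in dry seed (-1.27, limma adjusted p = 0.03). Its estimate did not move, and its SE went from 0.47 to 0.41. The late desiccation replicates kept had low-level signals of 10.04 and 7.73, whose part in this call was not tested.

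When dry seed was set against early desiccation, the PHYB genes had the highest estimates, and neither was called. The median of all genes here was 0.18. PHYB1 had 335 ± 27.3 in early desiccation and 509 ± 88.9 in dry seed, a log2 change of 0.59 ± 0.16 (SE; limma adjusted p = 0.0174). PHYB2 had 84.0 ± 35.4 and 150 ± 21.6, a log2 change of 0.91 ± 0.34 (SE; limma adjusted p = 0.0862). The replicates of PHYB2 were close, the lowest of dry seed at 126 and the highest of early desiccation at 123. Both changes were under 2-fold, so that limma called 0 of the 6 genes, beside 7.61% of all genes. These 2 genes had an unadjusted p under 0.05, a looser cut given without a share of all genes. PHYB2 was called by edgeR (log2 change 1.13, edgeR adjusted p = 0.00799), with TMM scaling (1.21, limma adjusted p = 0.0153), which moved the median of all genes by 0.30, and without early desiccation replicate 3 (1.22, limma adjusted p = 0.0141). DESeq2 called 0. The 4 PHYA genes had estimates of 0.35, 0.21, -0.17 and -0.26 for PHYA1 to PHYA4 (limma adjusted p = 0.432 to 0.865), and those of PHYA3 and PHYA4 turned to 0.14 and 0.04 with TMM scaling and to 0.01 and 0.08 without both replicates numbered 3.

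In the first 3 h after water uptake 0 of the 6 genes were called by limma, edgeR or DESeq2, beside 3.4% of all genes by limma. At the looser cut of an unadjusted p under 0.05, without a share of all genes, there was 1 gene. This gene was PHYA3, with a log2 change of 0.65 ± 0.26 (SE; limma adjusted p = 0.162). The estimates of PHYA1, PHYA2 and PHYB1 were 0.30 ± 0.23, 0.27 ± 0.18 and 0.32 ± 0.16, close to the median of all genes at 0.24. PHYA4 had 0.81 with a 95% interval from -0.27 to 1.90, and PHYB2 -0.18 with an interval from -0.88 to 0.53.

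**Figure D2:**
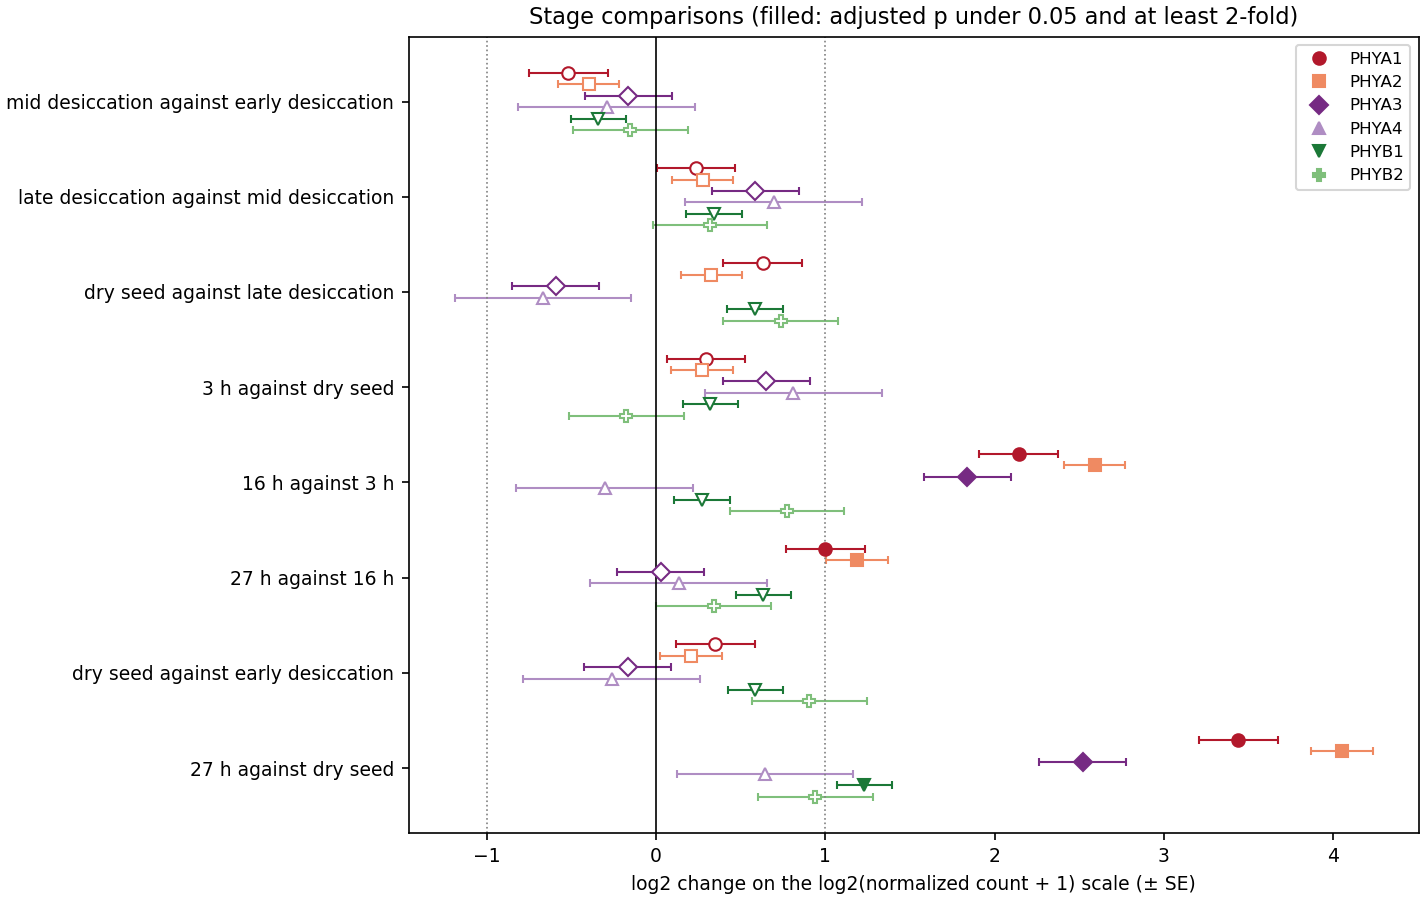
Log2 change of each phytochrome gene (horizontal axis, log2(normalized count + 1) scale, ± SE) in the 8 stage comparisons (vertical axis). Filled symbols passed an adjusted p under 0.05 and 2-fold; they are the 3 rises from 3 h to 16 h, the 2 from 16 h to 27 h and the 4 from dry seed to 27 h, and dotted lines mark 2-fold.

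Between 3 h and 16 h the PHYA genes other than PHYA4 rose. PHYA2 had 800 ± 29.9 normalized counts at 3 h and 4844 ± 566 at 16 h, a log2 change of 2.59 ± 0.18 (SE; limma adjusted p = 1.6e-08). PHYA1 had 816 ± 190 and 3553 ± 345, a change of 2.14 ± 0.23 (limma adjusted p = 3.02e-06), and PHYA3 136 ± 24.6 and 488 ± 87.8, a change of 1.84 ± 0.26 (limma adjusted p = 5.96e-05). These 3 genes were called and higher, beside 4.77% of all genes. Of the genes tested, 98.2% had a lower change than PHYA2, 97.05% than PHYA1 and 95.8% than PHYA3. The median change of the 6 genes was 1.31, and that of all genes -0.33. The 3 calls held under each alternative in the closing section. PHYB1 had a log2 change of 0.27 with a 95% interval from -0.07 to 0.61 (limma adjusted p = 0.333). PHYA4 had -0.30 with an interval from -1.39 to 0.78 (limma adjusted p = 0.738). PHYB2 had 0.77, without overlap, with an interval from 0.07 to 1.48 (limma adjusted p = 0.165). Without both replicates numbered 3 the PHYB2 change was again 0.77 (limma adjusted p = 0.00876), under the 2-fold threshold. Its limma adjusted p was 0.0409 without late desiccation replicate 3 alone, and up to 0.419 when other single replicates were left out. No alternative called PHYB2, with changes from 0.62 to 0.94.

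From 16 h to 27 h PHYA1 and PHYA2 rose further. PHYA2 had 4844 ± 566 at 16 h and 10989 ± 171 at 27 h, a log2 change of 1.19 ± 0.18 (SE; limma adjusted p = 3.39e-05). PHYA1 had 3553 ± 345 and 7086 ± 53.4, a change of 1.0005 ± 0.23 (limma adjusted p = 0.00269). These 2 genes were called and higher, beside 6.45% of all genes. Only 77.5% of the genes tested had a lower change than PHYA2 and 71.8% than PHYA1, less than in the step before. The PHYA1 change lay on the 2-fold threshold: the call was lost with DESeq2 (0.93, DESeq2 adjusted p = 0.000269), with a pseudocount of 5 (0.9997), and without 16 h replicate 3 (0.92, limma adjusted p = 0.0186) or 27 h replicate 1 (0.99, limma adjusted p = 0.0104). PHYB1 had 762.2 ± 55.4 at 16 h and 1183 ± 44.0 at 27 h, without overlap, a log2 change of 0.63 ± 0.16 (SE; limma adjusted p = 0.0063), under the 2-fold threshold. PHYB2 had 0.34 with a 95% interval from -0.36 to 1.05, PHYA3 0.03 with an interval from -0.51 to 0.56 and PHYA4 0.14 with an interval from -0.95 to 1.22. The median of all genes in this step was 0.41, and that of the 6 genes 0.49.

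Over germination as a whole, 4 of the 6 genes were called and higher at 27 h than in dry seed, beside 19.1% of all genes. The log2 change was 4.05 ± 0.18 SE for PHYA2 (limma adjusted p = 1.75e-13), 3.44 ± 0.23 for PHYA1 (limma adjusted p = 1.06e-10), 2.52 ± 0.26 for PHYA3 (limma adjusted p = 5.31e-08) and 1.23 ± 0.16 for PHYB1 (limma adjusted p = 2.26e-06). For PHYB2 it was 0.94 ± 0.34 (limma adjusted p = 0.0308), under the 2-fold threshold, and it was called with edgeR (1.02), with TMM scaling (1.04), with run 1 of each replicate alone (1.29) and without dry seed replicate 2 (1.01). PHYA4 had 0.64 with a 95% interval from -0.44 to 1.73 (limma adjusted p = 0.392), although its 27 h replicates lay just above those of dry seed. Of all genes, 96.5% had a lower change than PHYA2, 94.3% than PHYA1, 88.5% than PHYA3 and 73.5% than PHYB1. Of the PHYA1 change of 3.44, the steps to 3 h, 16 h and 27 h contributed 0.30, 2.14 and 1.0005, and of the PHYA2 change of 4.05 they contributed 0.27, 2.59 and 1.19. For PHYB1 these steps were 0.32, 0.27 and 0.63.

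**Figure D3:**
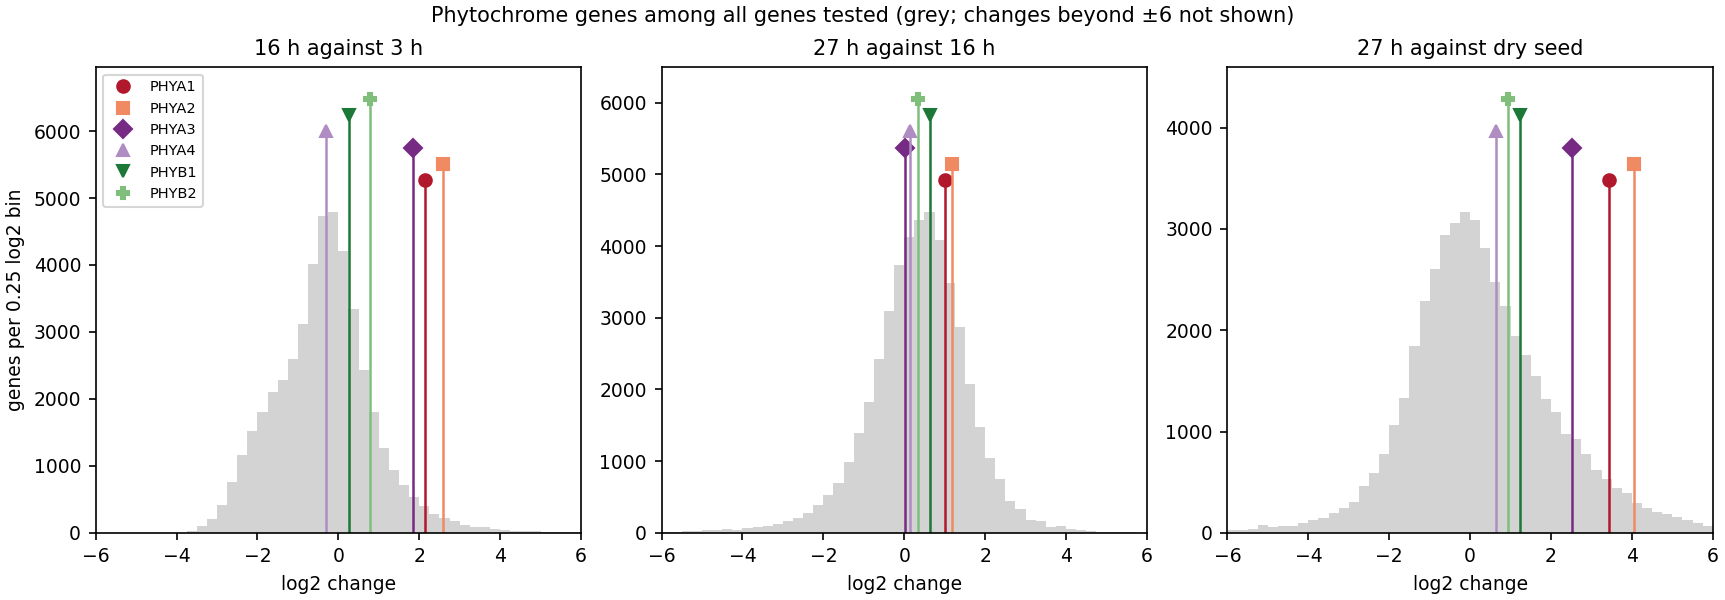
Number of genes (vertical axis, linear) by log2 change (horizontal axis, bins of 0.25) for all 46537 genes tested in 3 comparisons, with each phytochrome gene marked at its own change; marker height has no meaning. From 3 h to 16 h PHYA1, PHYA2 and PHYA3 lie in the upper tail at 2.14, 2.59 and 1.84. PHYA4 lies at -0.30, near the median of all genes at -0.33. PHYB1 and PHYB2 lie above that median at 0.27 and 0.77, with 73.5% and 85.7% of genes lower.

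Ratios between the genes show how their balance changed. Gene lengths were not at hand, so the ratios carry no statement on which gene was more abundant, only on how a ratio moved. The log2 ratio of summed PHYA to summed PHYB counts was 1.55 ± 0.25 in early desiccation, 1.42 ± 0.38 in mid desiccation, 1.38 ± 0.10 in late desiccation, 1.12 ± 0.11 in dry seed and 1.23 ± 0.07 at 3 h, and then 3.17 ± 0.23 at 16 h and 3.66 ± 0.04 at 27 h (SD, n = 3). The lowest 16 h replicate, at 3.00, lay above the highest replicate of any earlier stage, at 1.81. In these sums the genes with most counts weigh most. At 27 h the PHYA means were 7086 and 10989 for PHYA1 and PHYA2, but 497 and 40.7 for PHYA3 and PHYA4. Those of PHYB1 and PHYB2 were 1183 and 288. The ratio thus mainly follows PHYA1, PHYA2 and PHYB1, and does not speak for PHYA4.

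The ratio of PHYA3 to PHYA4 moved at the same step. It lay between 1.54 and 1.73 (log2, stage means) up to 3 h and at 3.68 ± 0.52 and 3.58 ± 0.44 at 16 h and 27 h. The lowest replicates of the late stages, both at 3.21, were above the highest replicate of the earlier stages, at 2.52. These values rest on the few reads of PHYA4.

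The ratio of PHYA1 to PHYA2 had a mean of -0.02 ± 0.13 in dry seed. It was 0.003 ± 0.38 after 3 h, then -0.45 ± 0.06 after 16 h and -0.63 ± 0.03 after 27 h. Replicates of these last stages did not overlap each other, but those of early desiccation spanned -0.65 to 0.14. The ratio of PHYB1 to PHYB2 stayed between 1.74 and 2.24 in all stage means, with replicates from 1.29 to 2.78.

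With the 7 stage means as units, 4 before and 3 after imbibition, no ratio passed the test (exact permutation test, 35 arrangements, two-sided, adjusted over 4 ratios, smallest p possible 0.0286). After the adjustment 1 ratio alone could not go below 0.114, nor 2 ratios below 0.0571, so the test could not have passed 1 or 2 ratios and says nothing about whether they moved. The difference after minus before was 1.32 for PHYA to PHYB (exact p = 0.114, adjusted p = 0.286), 1.27 for PHYA3 to PHYA4 (exact p = 0.143, adjusted p = 0.286), -0.16 for PHYA1 to PHYA2 (exact p = 0.457, adjusted p = 0.457) and 0.11 for PHYB1 to PHYB2 (exact p = 0.429, adjusted p = 0.457). In this grouping the 3 h stage counts as after imbibition, while its first 2 ratios were at the level of the earlier stages. With the 12 and 9 replicates as units, which share their stages, the first 2 differences had an exact adjusted p of 0.00501 and 0.00534.

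**Figure D4:**
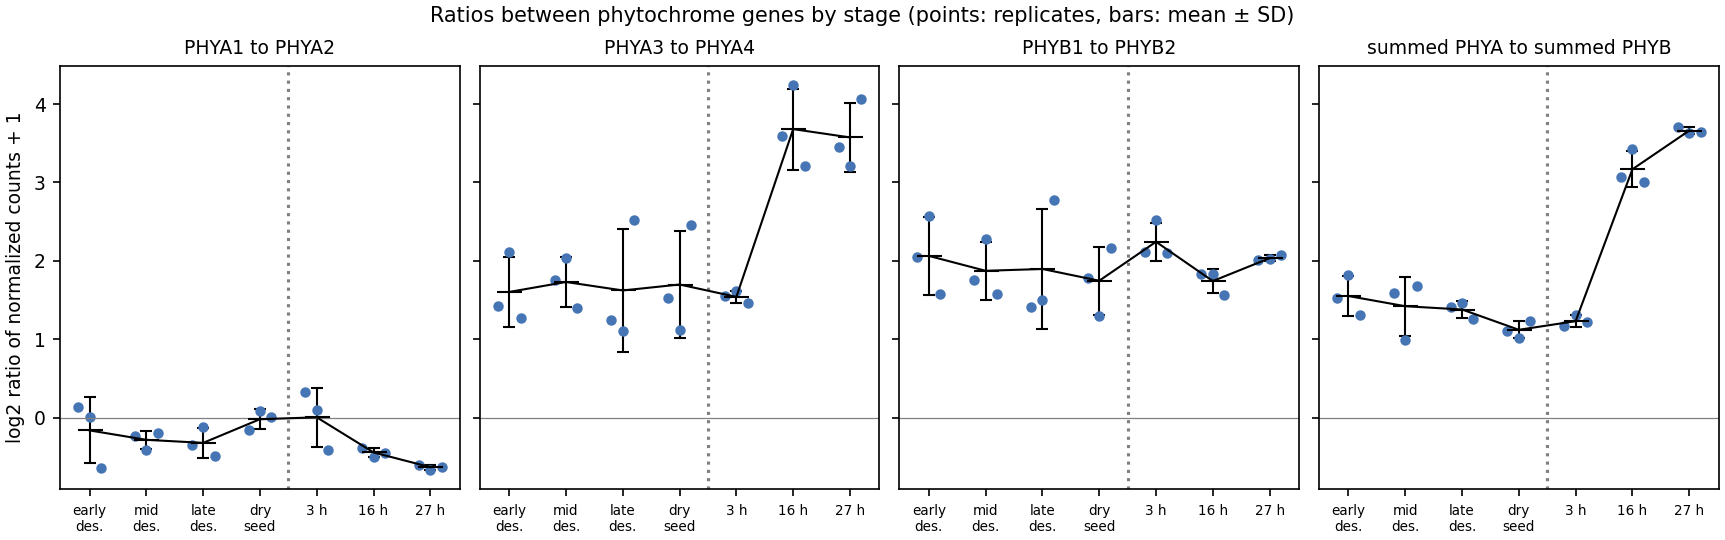
Log2 ratio of normalized counts plus 1 (vertical axis) for 3 gene pairs and for summed PHYA to summed PHYB at the 7 stages (horizontal axis); points are replicates and bars the mean ± SD, and the dotted line marks imbibition. PHYA to PHYB goes from 1.23 at 3 h to 3.17 at 16 h and PHYA3 to PHYA4 from 1.54 to 3.68, while PHYB1 to PHYB2 stays between 1.74 and 2.24.

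The genes with the profiles most like those of the phytochromes were sought by Pearson's r of log2 values over the 21 replicates, among 16763 other genes averaging 100 or more. The replicates share their stages and libraries, so r is a description. For PHYA2 they were Glyma08g09680 (r = 0.989) and Glyma13g31310 (r = 0.984), for PHYA1 Glyma13g19860 (r = 0.978) and Glyma09g39070 (r = 0.977), and for PHYA3 Glyma20g26080 (r = 0.971) and Glyma10g30650 (r = 0.968). An r of at least 0.95 was reached by 150, 59 and 18 genes for PHYA2, PHYA1 and PHYA3. The genes most like PHYB1 were Glyma05g02080 (r = 0.960) and Glyma20g31330 (r = 0.953), the only 2 candidates at this level, and those most like PHYB2 were Glyma15g41470 (r = 0.948) and Glyma07g07250 (r = 0.938). For PHYA4 the highest values were lower, with 0.799 for Glyma01g06800 and 0.777 for Glyma13g41560. No source used here pairs these IDs with names.

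The most similar gene to PHYA2, Glyma08g09680, went from 179 normalized counts in dry seed to 3059 at 16 h and 13324 at 27 h. Glyma20g26080, the most similar to PHYA3, went from 126 in dry seed to 927 at 16 h and 1199 at 27 h. Glyma10g30650, the second for PHYA3, had 32.9, 832 and 925 at these stages. All were picked for their likeness, so their courses are no separate result. Glyma05g02080, similar to PHYB1, went from 640 in dry seed to 864 at 16 h and 1130 at 27 h.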

How the data were processed

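Per the submitters' processing notes, reads were trimmed with Trimmomatic 0.38 and aligned with HISAT2. The counting tool, its use of strand, the genome build and the annotation were not given in the sources used here, so reads of near-identical copies such as PHYA1 and PHYA2 may be split between them in an unknown way. The deposited signal values are DESeq-normalized counts, as the authors named the table, and their steps show read counts divided by 1 factor per library. All values (100%) were whole multiples of 1 read within 0.001 reads, which gave 2.47 to 80.08 M (mega) reads per library, 1 read being worth 0.173 to 8.95 normalized counts. Of 46 table columns 45 matched a label; 1 matched none and was not used. The labelled run 2 of late desiccation replicate 3 matched no column, so this replicate is run 1 alone.

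Runs were averaged per replicate, giving 21. Genes that reached 10 in 3 or more replicates, 46537 in all, entered limma 3.58.1 (R 4.3.3) on log2(value + 1), 1 mean per stage, variance trend, robust moderation and Benjamini-Hochberg adjustment over all genes in each of 8 comparisons. Fold changes on this scale understate changes of low genes. Called means an adjusted p under 0.05 and at least 2-fold. The error given with log2 changes is SE, and that of levels and ratios is SD. The fit was tested on simulated data. Ratios between genes of a replicate were compared with an exact permutation test of stage means. Choices varied one by one were the pseudocount (5 for 1), the low-value filter (none), the scaling (TMM), the runs used (run 1 only), a block for the replicate number, the fold threshold (none), and a fit on just the compared stages. The recovered reads were also tested with DESeq2 1.42.0 and with the quasi-likelihood test of edgeR 4.0.16, which called 16088 and 13984 genes at 27 h against dry seed, where limma called 14992. Each replicate was left out in turn. Leaving out replicate 3 of both early and late desiccation was added after seeing the data. Figures used Python 3.11.15 and matplotlib 3.10.9. The named genes are the 6 members and the 2 most similar genes of each. Members and lists were chosen with earlier results of these data known. Other light-signalling genes and storage protein markers are not reported, because 0 of 54175 IDs matched the reference table of 59048 genes.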

Additional observations from a re-analysis of the deposited data

How the results depend on the processing

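The 3 calls from 3 h to 16 h and the calls of PHYA1, PHYA2, PHYA3 and PHYB1 from dry seed to 27 h held under every alternative run; PHYA1 ranged from 3.31 to 3.54, PHYA2 from 3.86 to 4.16, PHYA3 from 2.39 to 2.74 and PHYB1 from 1.08 to 1.35 (log2). The count for 16 h to 27 h was 1 with a pseudocount of 5 and with DESeq2, and 1 to 2 when single replicates were left out, each time through PHYA1 at the 2-fold threshold. For late desiccation to dry seed the count was 1 with TMM scaling, without a fold threshold, with edgeR and without early and late desiccation replicate 3, and 0 without any single replicate; the gene called was PHYB2, PHYB1, PHYA1 and PHYA4 in this order. For early desiccation to dry seed it was 1 with TMM scaling, without a fold threshold, with edgeR and without the same pair, and 0 to 1 without single replicates, through PHYB2 except without a fold threshold, where it was PHYB1. Without that pair PHYA4 passed the test across the stages (range 1.35, limma adjusted p = 0.0332). Both PHYA4 calls without the pair rest on late desiccation replicates with low-level signals of 10.04 and 7.73. The PHYA3 estimate for 16 h to 27 h turned to -0.0391 with run 1 alone and ranged from -0.1294 to 0.1184 without single replicates, without being called. The difference after minus before imbibition in the log2 ratio of PHYB1 to PHYB2 turned from 0.112 to -0.0259 with run 1 alone. With replicates as units the differences of PHYA to PHYB (1.32) and PHYA3 to PHYA4 (1.27) passed. Replicates share their stages and are not independent units for this question, so these passes carry little weight. With stage means as units the exact adjusted p was 0.286 for both. The cause of these shifts was not tested. By the median, same-numbered replicates did not deviate together (r = -0.01 over 63 pairs, and -0.01 over the other pairs). Single values went from -0.33 to 0.58, with 18 over 0.1. The numbers were thus not treated as a pairing, though a median cannot exclude one between some stages. With the replicate block 3, 2 and 4 genes were called for 16 h against 3 h, 27 h against 16 h and 27 h against dry seed, as without it. Depth limits PHYA4 and PHYB2 most, with 2 and 5 reads in late desiccation replicate 3.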
